A study of Mus musculus with 12 samples.

Results

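The genes described here are the secreted growth factors pleiotrophin (*Ptn*) and midkine (*Mdk*) and 4 of their cell-surface receptors, *Ptprz1*, *Sdc1*, *Sdc3* and *Alk*. They were taken by name from the gene column of the deposited table, and all 6 were present among its 57010 genes. No threshold entered the rule, but the names were chosen by a reading of earlier results of these data, their levels and differences in these same comparisons included, so the adjusted p-values below describe the genes and are not independent evidence. Of the 6 genes, 5 passed the filter on low counts and were tested with 16502 genes in all. *Alk* did not pass and is given by its levels.

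Pleiotrophin and midkine are the members of one small family of heparin-binding factors, rich in basic residues, that are made by embryonic neural tissue and bind the sugar chains of proteoglycans. PTPRZ1 is a receptor tyrosine phosphatase of radial glia and glial precursors that carries chondroitin sulfate, and binding of pleiotrophin lowers its phosphatase activity. Syndecans are membrane proteoglycans that bind both ligands through heparan sulfate, with syndecan-3 known from neurons and their precursors and syndecan-1 mainly from epithelia. ALK is a receptor tyrosine kinase of the developing nervous system that has also been described as a receptor of both factors.

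Bulk polyA RNA-Seq was done on NE-4C cells, a neural progenitor line from embryonic day 9 mouse brain that lacks p53, in wildtype cells (WT) and in a *Faf2* knockout line (KO) made with CRISPR-Cas9 by removing exon 4. FAF2 recruits the ATPase VCP to the membranes of the endoplasmic reticulum and of lipid droplets. Each genotype was collected untreated (WT NO, KO NO), taken here as day 0, or on day 3 after 24 h in 1 µM all-trans retinoic acid (RA) and a chase in growth media (WT RA, KO RA), with 3 libraries per group from separate passages. All 4 groups share the p53-deficient background, the knockout is 1 edited line, and the effect of RA cannot be told apart from that of a difference in days in culture.

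Library totals ran from 17370069 to 30738717 counts, and levels are given as CPM, that is counts scaled to a common library total with TMM factors. The deposited counts are scaled for gene length, so that CPM can be compared between genes. The targeted gene *Faf2* averaged 41.6 CPM (36.0 to 50.01) in untreated WT cells and 22.7 CPM (21.0 to 25.4) in untreated KO cells, with no overlap. After RA it averaged 40.7 CPM (35.1 to 49.1) in WT and 29.7 CPM (18.7 to 36.1) in KO, where the libraries overlapped. Counts per gene do not resolve the removed exon. The paper reports significantly reduced *Faf2* mRNA in KO cells, and loss of the protein by immunofluorescence and western blot. Among neural progenitor markers, *Nes*, *Sox2*, *Otx2* and *Cdh2* were between 25.6 and 152 CPM on average in every group, and *Pax6* was at 7.41 CPM in WT NO, 13.8 in WT RA, 1.30 in untreated KO and 2.98 in RA-treated KO, called lower in KO in both states. The *Pax6* call in untreated cells was kept in 5 of 12 fits with 1 library left out (without WT NO replicate 3, KO NO replicate 3 or any KO RA library, adjusted p up to 0.136), and that after RA in 2 (without WT NO replicate 3 or KO RA replicate 3, adjusted p up to 0.164). KO RA replicate 3 stood apart, with a TMM factor of 0.394 against 0.872 to 1.28 in the other 11 libraries and 23.5% mitochondrial counts against 9.10 to 17.7%. Results are therefore given with and without it. *Faf2* was not called between genotypes in untreated cells (log2 fold change -0.87 ± 0.27, edgeR adjusted p = 0.179) or after RA (-0.45 ± 0.27, 0.395). Without KO RA replicate 3 it was called lower in untreated KO (-0.86, edgeR adjusted p = 0.0111) and not after RA (-0.21, 0.489). In that fit *Faf2* rose with RA in KO cells (0.62, edgeR adjusted p = 0.0382).

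The 6 genes lie on 5 chromosomes (GRCm39). *Ptn* (ENSMUSG00000029838) spans 116 kb of the reverse strand at chr6:36680960-36796991, with 5 exons in its canonical transcript, and *Mdk* (ENSMUSG00000027239) spans 2.70 kb of the reverse strand at chr2:91760143-91762846, also with 5 exons. *Ptprz1* (ENSMUSG00000068748, chr6:22875358-23054236, forward) and *Alk* (ENSMUSG00000055471, chr17:72174200-72911622, reverse) each have 29 exons. *Sdc1* (ENSMUSG00000020592, chr12:8820854-8843725, forward) and *Sdc3* (ENSMUSG00000025743, chr4:130519826-130556217, forward) have 5 exons each. On chromosome 17 the median log2 fold change of the 794 tested genes was -0.47 in KO NO against WT NO and -0.46 in KO RA against WT RA, against -0.02 and 0.09 over all genes, and on the chromosomes of the other members this median lay between -0.15 and 0.18 in both comparisons. The bearing of this on *Alk* was not tested.

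The 250 bases before the RefSeq start sites of *Ptn*, *Sdc3* and *Ptprz1* (GRCm38.p6, 5′ to 3′ on each gene's strand) are printed because the first 2 genes rose together after RA in the KO cells and *Ptprz1* followed genotype instead. Capitals mark GGGCGG, a GC box, on either strand. The windows are chr6:36810180-36810429 for *Ptn*, chr4:130792287-130792536 for *Sdc3* and chr6:22875252-22875501 for *Ptprz1*.
Ptn: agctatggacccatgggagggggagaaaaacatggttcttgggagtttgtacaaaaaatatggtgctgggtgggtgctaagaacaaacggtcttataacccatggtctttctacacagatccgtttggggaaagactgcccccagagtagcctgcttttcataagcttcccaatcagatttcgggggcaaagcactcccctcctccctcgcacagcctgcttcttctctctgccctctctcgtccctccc
Sdc3: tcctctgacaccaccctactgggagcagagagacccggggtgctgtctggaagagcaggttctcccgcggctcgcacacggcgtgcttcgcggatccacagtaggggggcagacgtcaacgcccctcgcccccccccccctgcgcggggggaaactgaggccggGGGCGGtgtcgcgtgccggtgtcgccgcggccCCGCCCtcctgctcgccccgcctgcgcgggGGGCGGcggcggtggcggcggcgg
Ptprz1: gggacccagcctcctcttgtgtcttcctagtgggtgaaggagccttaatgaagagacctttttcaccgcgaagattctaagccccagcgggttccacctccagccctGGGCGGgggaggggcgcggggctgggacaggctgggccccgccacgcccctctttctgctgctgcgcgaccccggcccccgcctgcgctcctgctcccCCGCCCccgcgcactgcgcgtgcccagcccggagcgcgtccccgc
The hexamers bound by retinoic acid receptors were searched on both strands, and none was in these 3 windows. Of the 32851 promoters of the same length, AGGTCA was in 14.0%, the variant GGGTCA in 11.6%, the variant AGTTCA in 11.8% and the variant GGTTCA in 8.85%, and 38.6% held at least 1 of them. A direct repeat of these hexamers with the spacing called DR5, which counts each hexamer too, was in 0.0883% of all windows and in none of these 3. The GC box was found 0 times in the *Ptn* window, 3 times in that of *Sdc3* and 2 times in that of *Ptprz1*, against 32.7% of all windows with at least 1. GC content was 52% for *Ptn*, 76.4% for *Sdc3* and 71.6% for *Ptprz1*. The windows of *Sdc1* and *Alk*, searched but not printed, held 3 and 1 GC boxes. That of *Alk* also held 1 of the hexamers, AGTTCA in reverse orientation, and that of *Sdc1* held 0. A match or its absence describes these letters only.

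To see how the ligand *Ptn* differed between genotypes and with RA, its level was compared across all 12 libraries. *Ptn* was at 3.77, 3.33 and 3.45 CPM in WT NO and at 0.352, 0.770 and 1.01 CPM in KO NO. After RA it was at 20.7, 15.2 and 25.1 CPM in WT and at 62.0, 29.5 and 86.5 CPM in KO. The 4 groups did not overlap, in the order KO NO, WT NO, WT RA, KO RA, so that KO was the lower genotype without RA and the higher one after it. The KO NO libraries rest on 12, 26 and 36 counts, the fewest of any group, and the KO RA libraries had the largest SD, 28.6 around a mean of 59.3 CPM.

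**Figure D1:**
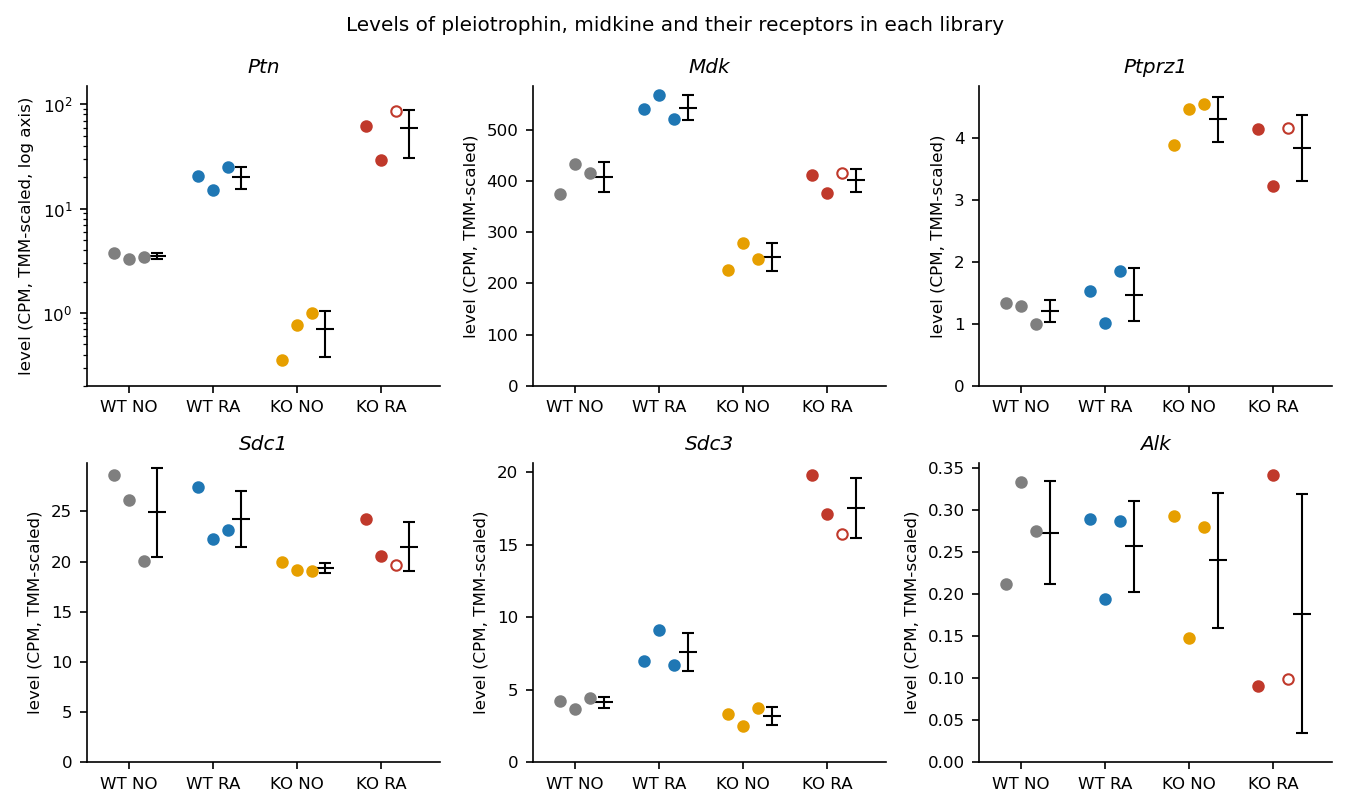
Level in CPM of each of the 6 genes (vertical axis, TMM-scaled, starting at 0 except for Ptn, which has a log axis) in the 3 libraries of each group, with the mean and SD (n = 3) beside them. The open circle is KO RA replicate 3. Ptn in KO RA lies between 29.5 and 86.5 CPM, above the other groups, Ptprz1 separates by genotype, and Sdc3 in KO RA lies between 15.8 and 19.8 CPM.

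In untreated cells *Ptn* was 4.92-fold lower in KO than in WT, a log2 fold change of -2.30 ± 0.44 (SE, n = 3 per group, edgeR adjusted p = 0.0343), and -2.29 without KO RA replicate 3 (edgeR adjusted p = 0.00651). RA raised *Ptn* 5.77-fold in WT cells, a log2 change of 2.53 ± 0.42 (edgeR adjusted p = 0.0359, and 0.00308 without KO RA replicate 3). In KO cells the rise was 82.9-fold, or 6.37 ± 0.51 on the log2 scale (edgeR adjusted p = 0.000168), and 5.99 without KO RA replicate 3 (edgeR adjusted p = 4.94e-05). *Ptn* in KO RA was 2.92-fold above WT RA with no overlap of libraries, yet the log2 difference of 1.54 ± 0.41 did not pass the test (edgeR adjusted p = 0.0933), also not without KO RA replicate 3 (1.16 ± 0.35, 0.0592). It was called in 3 of 18 alternative fits, with log2 differences of 0.98 to 1.92 over all 18. The paper, with DESeq2, names *Ptn* among the genes upregulated in KO cells after RA. The fitted response to RA differed between KO and WT by 3.84 ± 0.60 on the log2 scale, which had an unadjusted p of 4.68e-05 and an edgeR adjusted p of 0.0858, and by 3.45 ± 0.51 without KO RA replicate 3 (edgeR adjusted p = 0.0191).

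Both single calls of *Ptn* outside the KO response were near the threshold. The call in untreated cells was kept only without KO RA replicate 2 or 3 and lost without any one of the other 10 libraries (log2 fold change -2.64 to -1.99, adjusted p up to 0.160). The same 2 libraries could be left out of WT RA against WT NO without loss of the call, and the other 10 could not (log2 fold change 2.35 to 2.70, adjusted p up to 0.154). The rise in KO cells was called in all 12 of these fits, between 5.99 and 6.75 on the log2 scale. In bulk samples, fewer cells that express a gene and less RNA per cell cannot be told apart.

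Midkine was the most abundant of the 6 transcripts in every library. *Mdk* was at 375, 433 and 416 CPM in WT NO, and at 542, 568 and 520 CPM in WT RA. KO NO had 226, 280 and 247 CPM, and KO RA had 412, 376 and 416 CPM. KO lay below WT in every library at either state, and RA libraries lay above untreated ones within each genotype, so that KO RA and WT NO shared one range. Without TMM factors KO RA replicate 3 was at 164 CPM, below KO NO (263 to 307). KO RA replicate 1 was then at 525 CPM, inside the range of WT RA (464 to 577), and WT NO and WT RA overlapped. The log2 fold changes were smaller than those of *Ptn*, with -0.70 ± 0.21 in KO NO against WT NO, -0.44 ± 0.21 in KO RA against WT RA, 0.41 ± 0.21 in WT RA against WT NO and 0.68 ± 0.21 in KO RA against KO NO. *Mdk* passed the test in no comparison with all 12 libraries (edgeR adjusted p = 0.155, 0.296, 0.451 and 0.0821 in that order). Without KO RA replicate 3 it passed in all 4, as lower in KO (-0.69 and -0.47, edgeR adjusted p = 0.00559 and 0.0397) and higher after RA (0.42 and 0.64, edgeR adjusted p = 0.0377 and 0.00673). Its response to RA differed between genotypes by 0.26 ± 0.29, within the error.

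The ratio of the 2 ligands within a library does not depend on the scaling between libraries. *Ptn* made up 0.996, 0.765 and 0.822% of the summed *Ptn* and *Mdk* level in WT NO, and 3.68, 2.61 and 4.60% in WT RA. The share was 0.152, 0.278 and 0.4003% in KO NO and 13.1, 7.26 and 17.2% in KO RA. There were 421 ± 211 *Mdk* transcripts for each *Ptn* transcript in KO NO (SD, n = 3) and 8.07 ± 4.17 in KO RA, against 117 ± 15.6 and 28.1 ± 8.49 in WT NO and WT RA. *Mdk* therefore remained the main ligand transcript in all libraries, and the groups kept the order seen for the level of *Ptn*.

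**Figure D2:**
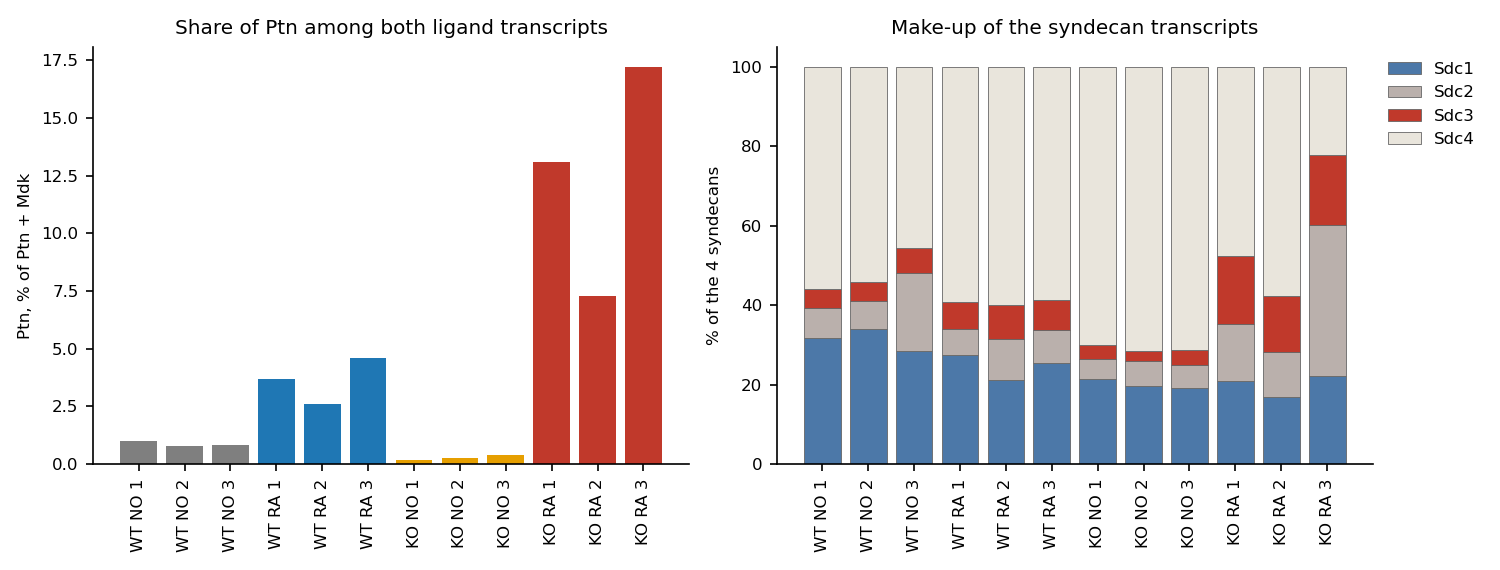
Left, Ptn as a percentage of the summed Ptn and Mdk level in each of the 12 libraries, with bars from 0. Right, the percentages of the 4 syndecans in the same libraries, stacked to 100. The Ptn share is 7.26 to 17.2% in KO RA and 0.152 to 0.4003% in KO NO, and the Sdc3 part is largest in the KO RA libraries.

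Among the receptors, *Ptprz1* followed genotype. It was at 1.34, 1.29 and 1.01 CPM in WT NO and at 3.90, 4.47 and 4.55 CPM in KO NO, without overlap. After RA it was at 1.54, 1.02 and 1.86 CPM in WT and at 4.15, 3.24 and 4.16 CPM in KO. Thus KO was above WT in every library in both states, while RA and untreated libraries of one genotype overlapped. The order after RA depended on the TMM factor of KO RA replicate 3. Without TMM factors that library was at 1.64 CPM, inside the range of WT RA (1.03 to 1.66).

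*Ptprz1* was 3.54-fold higher in KO NO than in WT NO (log2 fold change 1.83 ± 0.31, edgeR adjusted p = 0.0194, and 1.84 with 0.00471 without KO RA replicate 3). That call was lost without WT NO replicate 1 or 2 or any one of the 3 KO NO libraries (1.71 to 1.90 over all 12 fits, adjusted p up to 0.0948). After RA the difference was 2.60-fold and 1.38 ± 0.31 on the log2 scale, just outside the threshold (edgeR adjusted p = 0.0578) and inside it without KO RA replicate 3 (1.32 ± 0.30, edgeR adjusted p = 0.0242). RA changed *Ptprz1* by 0.28 ± 0.31 in WT and by -0.16 ± 0.30 in KO on the log2 scale, neither of which passed the test. In KO NO there was more *Ptprz1* than *Ptn* transcript, at 0.160 ± 0.0659 *Ptn* per *Ptprz1* (SD, n = 3), whereas in the other groups *Ptn* was in excess, at 2.94 ± 0.419 in WT NO, 14.0 ± 0.941 in WT RA and 15.0 ± 5.95 in KO RA.

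Syndecan-3 rose with RA in the KO cells. *Sdc3* was at 4.26, 3.696 and 4.46 CPM in WT NO and at 3.34, 2.52 and 3.77 CPM in KO NO, where the groups overlapped. RA libraries had 6.97, 9.12 and 6.74 CPM in WT and 19.8, 17.1 and 15.8 CPM in KO. Each RA group lay above both untreated groups, and KO RA above WT RA in every library.

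The rise of *Sdc3* in KO cells was 5.47-fold, or 2.45 ± 0.24 on the log2 scale (edgeR adjusted p = 0.000483, and 2.51 with 0.000128 without KO RA replicate 3), and it was called with any one library left out. In WT cells the rise was 1.84-fold (0.88 ± 0.23) and did not pass the test (edgeR adjusted p = 0.143), but passed without KO RA replicate 3 (edgeR adjusted p = 0.0212). After RA, *Sdc3* was 2.31-fold higher in KO than in WT (1.21 ± 0.23, edgeR adjusted p = 0.0365, and 1.27 with 0.00688 without KO RA replicate 3). This call was kept without WT NO replicate 3, KO RA replicate 2 or KO RA replicate 3 and lost without any one of the other 9 libraries (1.12 to 1.35, adjusted p up to 0.182). The genotype difference in untreated cells was -0.37 ± 0.23 (edgeR adjusted p = 0.614), and the response to RA differed by 1.57 ± 0.33 between genotypes (edgeR adjusted p = 0.189, and 1.63 with 0.0324 without KO RA replicate 3).

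Syndecan-1 changed little. *Sdc1* was at 28.6, 26.1 and 20.02 CPM in WT NO and at 27.5, 22.2 and 23.2 CPM in WT RA. KO NO libraries had 19.9, 19.1 and 19.1 CPM, and KO RA libraries 24.2, 20.6 and 19.6 CPM. KO NO lay just below WT NO without overlap, by -0.36 ± 0.20 on the log2 scale, and also below WT RA. In the other comparisons of genotype or RA the groups overlapped, with fitted changes from -0.17 to 0.15. It passed the test in no comparison, with or without KO RA replicate 3 (edgeR adjusted p between 0.169 and 0.971). Relative to *Sdc1*, the share of *Sdc3* in the sum of both was 12.9, 12.4 and 18.2% in WT NO and 20.2, 29.1 and 22.6% in WT RA. It was 14.4, 11.6 and 16.5% in KO NO and 44.98, 45.4 and 44.6% in KO RA. The KO RA libraries, replicate 3 included, lay above all others with an SD of 0.383 percentage points.

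Of the whole syndecan family, *Sdc4* was the most abundant in 11 of 12 libraries and made up 51.9 ± 5.45% of the family in WT NO (SD, n = 3), 59.3 ± 0.639% in WT RA, 71.0 ± 0.820% in untreated KO and 42.5 ± 18.4% in KO RA. *Sdc3* made up 5.28 ± 0.891%, 7.66 ± 0.855%, 3.31 ± 0.635% and 16.3 ± 1.99% in the same order. In KO RA replicate 3 the *Sdc4* share was 22.1% against 47.7 and 57.6% in the other KO RA libraries, and that of *Sdc2* was 38.0% against 14.3 and 11.4%. The *Sdc3* share of that library, 17.8%, was close to the 17.1 and 14.1% of the others.

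*Alk* had the lowest mean level of these genes in every group. It was at 0.211, 0.333 and 0.275 CPM in WT NO and at 0.288, 0.194 and 0.287 CPM in WT RA. Untreated KO had 0.293, 0.148 and 0.279 CPM, and RA-treated KO had 0.0903, 0.341 and 0.0991 CPM. These levels rest on 1 to 10 counts per library, which are scaled for gene length and are not numbers of fragments. KO RA replicates 1 and 3 held at most 3 counts, and all groups overlapped. In a fit with no filter beyond 1 count, its log2 fold changes lay between -0.49 and -0.08 with SEs of 0.858 or more, so that no difference was detectable at these counts. By contrast the next lowest receptor, *Ptprz1*, had 21 to 163 counts.

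The order of the mean levels within WT NO was *Mdk* (408 ± 29.6 CPM, SD, n = 3), *Sdc1* (24.9 ± 4.43), *Sdc3* (4.14 ± 0.394), *Ptn* (3.51 ± 0.228), *Ptprz1* (1.21 ± 0.1797) and *Alk* (0.273 ± 0.0607). *Sdc3* and *Ptn* were neighbours that differed little beyond their spread there, with 3.696 to 4.46 against 3.33 to 3.77 CPM. In WT RA *Ptn* (20.3 ± 4.96) stood beside *Sdc1* (24.3 ± 2.79), and these 2 overlapped. KO NO had *Ptprz1* (4.31 ± 0.358) above *Sdc3* (3.21 ± 0.636) and *Ptn* last but for *Alk*. In KO RA *Ptn* (59.3 ± 28.6) came after *Mdk* (401 ± 21.9) and before *Sdc1* (21.5 ± 2.43), *Sdc3* (17.6 ± 2.06) and *Ptprz1* (3.85 ± 0.532), and *Sdc1* and *Sdc3* overlapped only at their edges.

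Counted over the 5 tested genes, 1 rose (*Ptprz1*) and 1 fell (*Ptn*) in KO NO against WT NO, where 0.788% of all genes were called higher and 0.351% lower. In KO RA against WT RA 1 gene was called higher (*Sdc3*) among 0.885% of all genes, and none was called lower among 0.358%. RA raised 1 gene in WT (*Ptn*) among 0.321% of all genes and 2 in KO (*Ptn* and *Sdc3*) among 3.89%, and lowered none among 0.0848% and 1.59%. For the interaction edgeR called 0 of 16502 genes (0%), members included, with 913 and 510 genes above and below 0 at unadjusted p values under 0.05, while DESeq2 called 246 and limma-voom 985. Without KO RA replicate 3, 17327 genes were tested. In untreated KO against WT, 1 member was then called higher (4.43% of all genes) and 2 lower (4.35%). In KO RA against WT RA, 2 were higher (4.42%) and 1 lower (5.44%). RA raised 3 members in WT (5.65%) and 3 in KO (8.48%) and lowered 0 in either (5.13% and 7.54%). For the interaction 2 were higher (0.802%) and 0 lower (0.537%). Comparisons that share a group are not independent of each other.

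**Figure D3:**
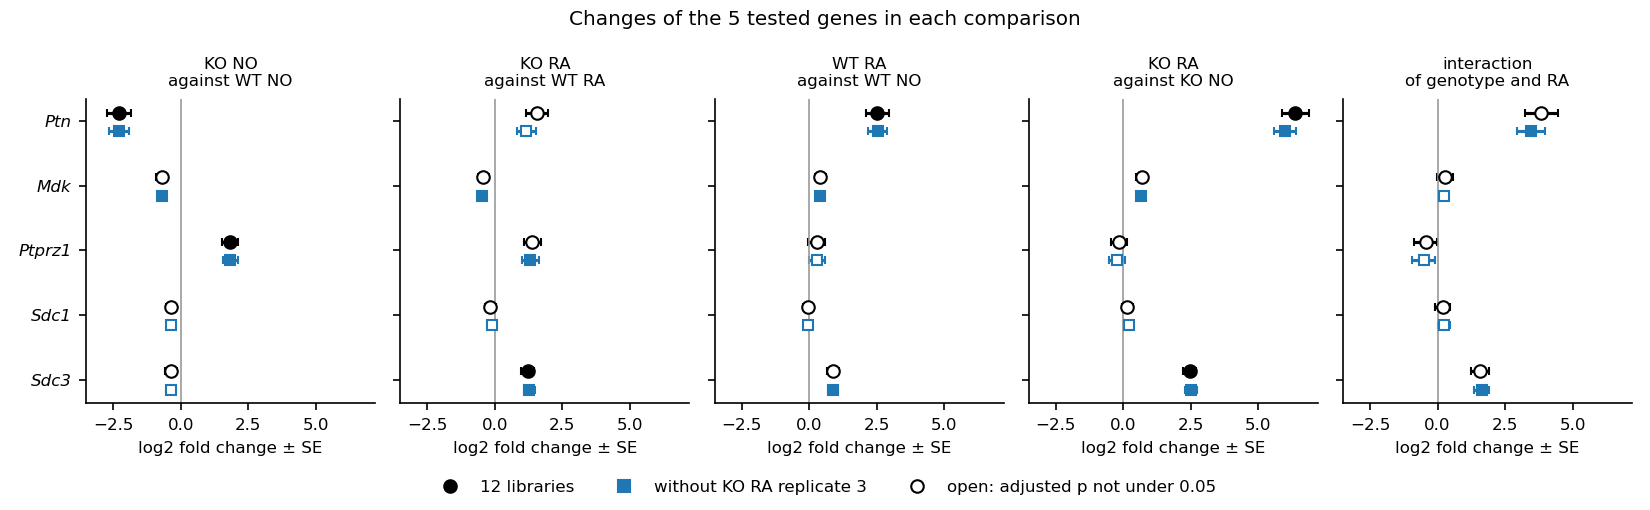
Log2 fold change with its SE (horizontal axis) of the 5 tested genes in the 5 comparisons, from edgeR on 12 libraries (black circles) and without KO RA replicate 3 (blue squares). Filled symbols have an adjusted p under 0.05. Ptn lies at -2.30 in untreated KO against WT and at 6.37 in KO RA against KO NO, and Sdc1 stays near 0 throughout.

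Counts of libraries without overlap were read in the same way, on levels with TMM factors. Without these factors KO RA and WT RA overlapped for *Mdk*, *Ptprz1* and *Sdc3*. RA and untreated libraries of each genotype then overlapped for *Mdk*. In KO NO against WT NO, 1 gene was higher without overlap (*Ptprz1*) and 3 were lower (*Ptn*, *Mdk* and *Sdc1*), where 15.5% and 15.2% of all genes were. In KO RA against WT RA 3 genes were higher (*Ptn*, *Ptprz1* and *Sdc3*) and 1 was lower (*Mdk*), where 9.97% and 10.9% of all genes were. *Ptn*, *Mdk* and *Sdc3* were higher without overlap after RA in WT, where 15.1% of genes were, and in KO, where 13.2% were. In these RA comparisons 0 members were lower without overlap, beside 14.0% and 17.0% of all genes.

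Genes of the wider pathway were taken from 4 lists with 81 genes, of which 71 were tested, and were read beside the same background. Among other receptors and binding partners (18 of 23 tested), the leading level was *Ncl*, nucleolin, at 885 to 1116 CPM on average in the 4 groups. *Vcan*, a matrix proteoglycan with chondroitin sulfate chains, and *Nrp1*, a co-receptor, rose in KO RA against KO NO together with *Sdc2*, and *Lrp2*, an endocytic receptor, fell. *Vcan* was at 1.73, 1.81 and 1.10 CPM in WT NO and 3.798, 3.98 and 3.25 CPM in WT RA. In KO cells it was at 0.674, 0.711 and 0.419 CPM untreated and at 13.6, 8.18 and 16.6 CPM after RA. Like *Ptn* it had 4 groups without overlap in the order KO NO, WT NO, WT RA, KO RA.

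*Vcan* rose by 4.40 ± 0.38 on the log2 scale in KO cells with RA (edgeR adjusted p = 0.000233) and was 1.79 ± 0.34 higher in KO RA than in WT RA (edgeR adjusted p = 0.0324). The latter was kept without WT NO replicate 2 or 3 or KO RA replicate 2 or 3 (1.56 and 0.0150 for KO RA replicate 3) and lost without any one of the other 8 libraries, with an adjusted p of up to 0.170. *Nrp1* rose from 0.289 ± 0.0455 to 2.90 ± 1.06 CPM in KO (log2 fold change 3.30 ± 0.46, edgeR adjusted p = 0.00391), a call kept with any one library left out. *Sdc2* rose by 1.94 ± 0.43 (edgeR adjusted p = 0.0257) and by 1.44 without KO RA replicate 3, and lost the call without any one of the KO NO libraries (adjusted p up to 0.136). *Lrp2* fell with RA in both genotypes, by 1.87 on the log2 scale in WT (edgeR adjusted p = 0.0369) and by 1.51 in KO (edgeR adjusted p = 0.0219). The first was lost without any one library except KO NO replicate 2 or KO RA replicate 3 (adjusted p up to 0.162) and the second without KO NO replicate 1 or 3 (adjusted p up to 0.0957).

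**Figure D4:**
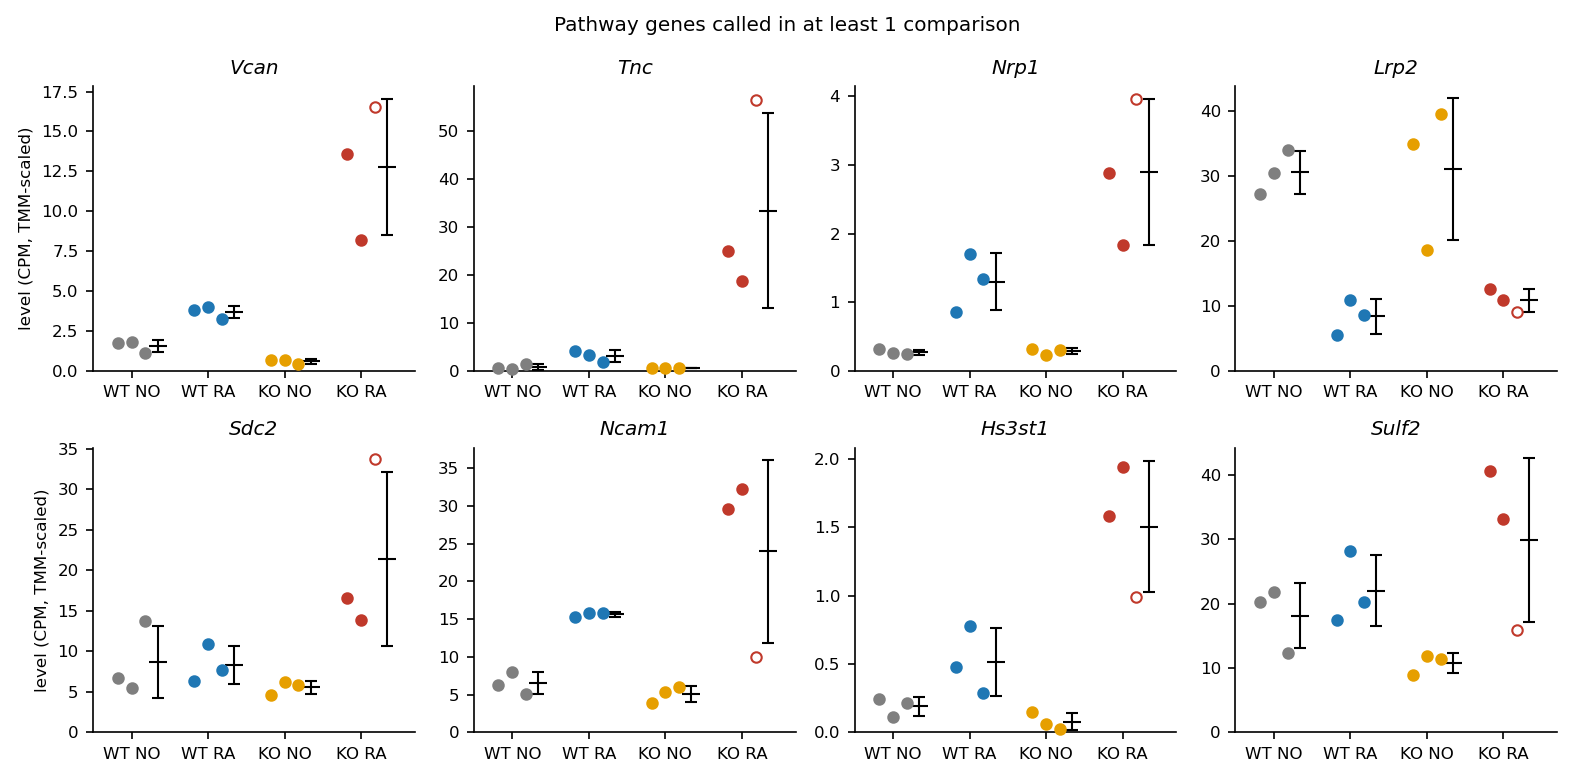
Level in CPM (vertical axis from 0) of the 8 pathway genes that were called in at least 1 comparison, in the 3 libraries of each group with the mean and SD (n = 3). The open circle is KO RA replicate 3. Vcan and Tnc are highest in the 3 KO RA libraries, at 8.18 to 16.6 and 18.6 to 56.5 CPM, and Lrp2 is lower after RA in both genotypes.

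Among ligands and substrates of PTPRZ1 (12 of 15 tested), *Ctnnb1*, beta-catenin, had the leading level at 387 to 431 CPM. *Tnc*, tenascin-C, a matrix ligand of PTPRZ1, was at 0.801 ± 0.560 CPM in WT NO (SD, n = 3), 3.13 ± 1.19 in WT RA, 0.570 ± 0.0340 in untreated KO and 33.3 ± 20.3 in KO RA. It was 10.6-fold higher in KO RA than in WT RA (log2 fold change 3.41 ± 0.55, edgeR adjusted p = 0.0165, and 2.79 with 0.00618 without KO RA replicate 3), a call lost without any one of the WT RA libraries (adjusted p up to 0.109). In KO cells *Tnc* rose by 5.86 ± 0.62 with RA (edgeR adjusted p = 0.000744), with any one library left out as well. *Ncam1*, an adhesion molecule, rose by 2.23 ± 0.39 in KO (edgeR adjusted p = 0.00992) and lost the call without KO NO replicate 1 or 2 (adjusted p up to 0.0551). KO RA replicate 3 had 10.0 CPM of *Ncam1* against 29.7 and 32.3 in the other KO RA libraries.

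Of the enzymes that make or trim heparan and chondroitin sulfate (31 of 33 tested), *B3gat3*, which builds the linkage region of both chains, and *Sulf1*, a sulfatase of heparan sulfate, had the leading levels averaged over the groups, with group means of 37.0 to 52.9 and 34.0 to 48.7 CPM. RA raised *Hs3st1*, a heparan sulfate sulfotransferase, in KO by 4.21 ± 0.73 on the log2 scale (edgeR adjusted p = 0.00961), from KO NO libraries of which 2 of 3 held at most 3 counts, and the call was lost without KO NO replicate 2 or 3 (adjusted p up to 0.0660). *Sulf2* rose by 1.48 ± 0.35 (edgeR adjusted p = 0.0370), a call kept only without WT NO replicate 1, WT NO replicate 3 or KO RA replicate 3 (adjusted p up to 0.142 in the other 9 fits). Among genes of syndecan shedding and scaffolds, 10 of 10 were tested and edgeR called 0 in each comparison, with 0 to 3 higher and 0 to 1 lower at unadjusted p values under 0.05. The leading level there, averaged over the groups, was *Sdcbp*, the scaffold syntenin, at 46.9, 55.7 and 354 CPM in KO RA, the last in replicate 3, and at 34.0 to 62.2 CPM elsewhere.

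Without KO RA replicate 3 the 8 genes stayed past the threshold in KO RA against KO NO, with log2 fold changes of 4.16 for *Vcan*, 3.00 for *Nrp1*, 1.44 for *Sdc2*, -1.41 for *Lrp2*, 5.23 for *Tnc*, 2.58 for *Ncam1*, 4.42 for *Hs3st1* and 1.77 for *Sulf2*.

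Counted over these lists, edgeR called 0 genes in KO NO against WT NO and 0 for the interaction, where DESeq2 called 4 and 2 and limma-voom 22 and 9. At unadjusted p values under 0.05, 0 to 2 genes per list were higher and 0 to 4 lower in the first, and 0 to 6 were higher in the second. Called higher in KO RA against KO NO were 3 of 18 other receptors, 2 of 31 enzymes and 2 of 12 ligands and substrates of PTPRZ1, where 3.89% of all genes were, with median log2 fold changes of -0.01, 0.31 and 0.43 beside 0.11 over all genes. In KO RA against WT RA 1, 0 and 1 were called higher, where 0.885% of all genes were, and the medians were 0.20, 0.10 and 0.18 beside 0.09. For untreated cells the medians were -0.07, -0.30 and -0.15 beside -0.02. Those of syndecan shedding and scaffolds were 0.02 in KO RA against KO NO, -0.11 in KO RA against WT RA and 0.06 in untreated cells. In WT RA against WT NO *Lrp2* was the 1 gene called lower, where 0.0848% of all genes were.

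These medians depended on KO RA replicate 3. Without it those of the other receptors, the enzymes and the ligands and substrates of PTPRZ1 were 0.40, 0.33 and 0.65 in KO RA against WT RA beside 0.01 over all genes, and 0.36, 0.29 and 0.97 in KO RA against KO NO beside -0.02. For untreated cells they were then -0.06, -0.29 and 0.02 beside -0.01, with 14 instead of 12 ligands and substrates of PTPRZ1 tested. Syndecan shedding and scaffolds had medians of 0.04, 0.25 and 0.07 in the same 3 comparisons. Of the 73 pathway genes tested without this library, 2 were called higher and 5 lower in untreated KO against WT, beside 4.43% and 4.35% of all genes. After RA, 8 were higher and 1 lower in KO than in WT, beside 4.42% and 5.44%. In WT RA against WT NO 6 were higher and 4 lower, beside 5.65% and 5.13%, and in KO RA against KO NO 13 were higher and 2 lower, beside 8.48% and 7.54%.

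Markers of other cell types moved with RA and genotype, as did *Ptn* and *Sdc3*. The 7 mesenchymal markers summed to 42.0 to 61.6 CPM in WT NO and 94.6 to 156 CPM in WT RA, and to 37.3 to 43.5 CPM in untreated KO and 170 to 316 CPM in KO RA. Of them 3 (*Col1a2*, *Col3a1* and *Prrx1*) were called higher in WT RA against WT NO and 5 (with *Col1a1* and *Acta2*) in KO RA against KO NO, none was called between genotypes in the fit of 12 libraries, and *Col1a1* held at most 3 counts in each KO NO library. The sums rested largely on few genes. *Twist1* gave 31.0, 38.8 and 34.3 CPM in KO NO, had group means of 34.7 to 43.5 CPM and was called in no comparison. *Acta2* gave 111, 62.3 and 210 CPM in KO RA. Without KO RA replicate 3, *Col1a2* and *Col3a1* were called higher in KO RA than in WT RA, by 1.92 and 1.27 on the log2 scale (edgeR adjusted p = 0.00592 and 0.0228), and 4 mesenchymal markers were called higher in WT RA against WT NO. The 6 astroglial markers summed to 29.0 to 166 CPM in KO RA and to 10.9 to 19.3 in the other groups, carried by *Fabp7*, which was called higher in KO RA against both WT RA and KO NO, while *Aqp4* and, except in WT RA and KO NO, *Gfap* were at or under 3 counts in all libraries of a group. The 5 endothelial markers summed to 6.15 to 13.3 CPM in KO RA and 0.591 to 2.81 elsewhere, and *Kdr*, *Tek* and *Emcn* were called higher in KO RA against KO NO. The 9 neuronal markers summed to 155 to 225 CPM in KO RA, 157 to 188 in WT RA, 88.3 to 151 in WT NO and 116 to 122 in KO NO, with *Map2* and *Tubb3* called higher in KO RA against KO NO. In that comparison 6 of the 9 had a positive log2 fold change. *Rbfox3* (-1.77), *Nefl* (-1.52) and *Snap25* (-0.27) were lower without a call. Neural progenitor markers summed to 169 to 324 CPM in KO RA and 254 to 313 elsewhere, with *Nes* and *Cdh2* called higher in KO RA against KO NO by 0.92 and 1.28 on the log2 scale (edgeR adjusted p = 0.0304 and 0.0102). *Otx2* went the other way there (log2 fold change -1.14, edgeR adjusted p = 0.157), and was called lower without KO RA replicate 3 (-0.71, edgeR adjusted p = 0.0224). Epithelial and endoderm markers summed to 74.2 to 107 CPM in KO RA, 133 to 183 in untreated KO and 81.7 to 144 in WT. The list was mixed in KO RA against KO NO. *Epcam* (-1.07) and *Cdh1* (-1.79) were lower, and 4 of the 6 had a positive log2 fold change, *Sox17* the largest (4.44), with none called. Without KO RA replicate 3, *Sox17* was called higher (4.88, edgeR adjusted p = 0.0171). *Epcam* and *Cdh1* were then called lower (edgeR adjusted p = 0.0372 and 0.0475). Oligodendrocyte markers summed to 0.702 to 4.47 with *Olig2* at or under 3 counts throughout, and haematopoietic markers to 2.18 to 6.68 with *Tyrobp* at or under 3 counts throughout.

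Several of these marker calls were lost when any one of several libraries was left out. *Tek* was kept only without WT NO replicate 3 or KO RA replicate 3 (adjusted p up to 0.161), *Fabp7* in KO RA against WT RA only without WT NO replicate 3, KO RA replicate 2 or KO RA replicate 3 (up to 0.182), and *Nes* only without WT NO replicate 1 or 3 or any KO RA library (up to 0.141). *Tubb3*, *Acta2* and *Kdr* were lost without any one of the KO NO libraries, and *Cdh2*, *Map2* and *Emcn* without KO NO replicate 1 or 2. In WT RA against WT NO, *Col3a1* and *Prrx1* were lost without WT NO replicate 1 and *Col1a2* without any one of the WT NO libraries or WT RA replicate 1 or 2. The mesenchymal markers *Col1a1*, *Col1a2*, *Col3a1* and *Prrx1*, and *Fabp7*, were called in KO RA against KO NO with any one library left out. Levels of marker transcripts in bulk samples do not identify cells, and the relation of these markers to the results for the ligands and receptors was not tested.

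**Figure D5:**
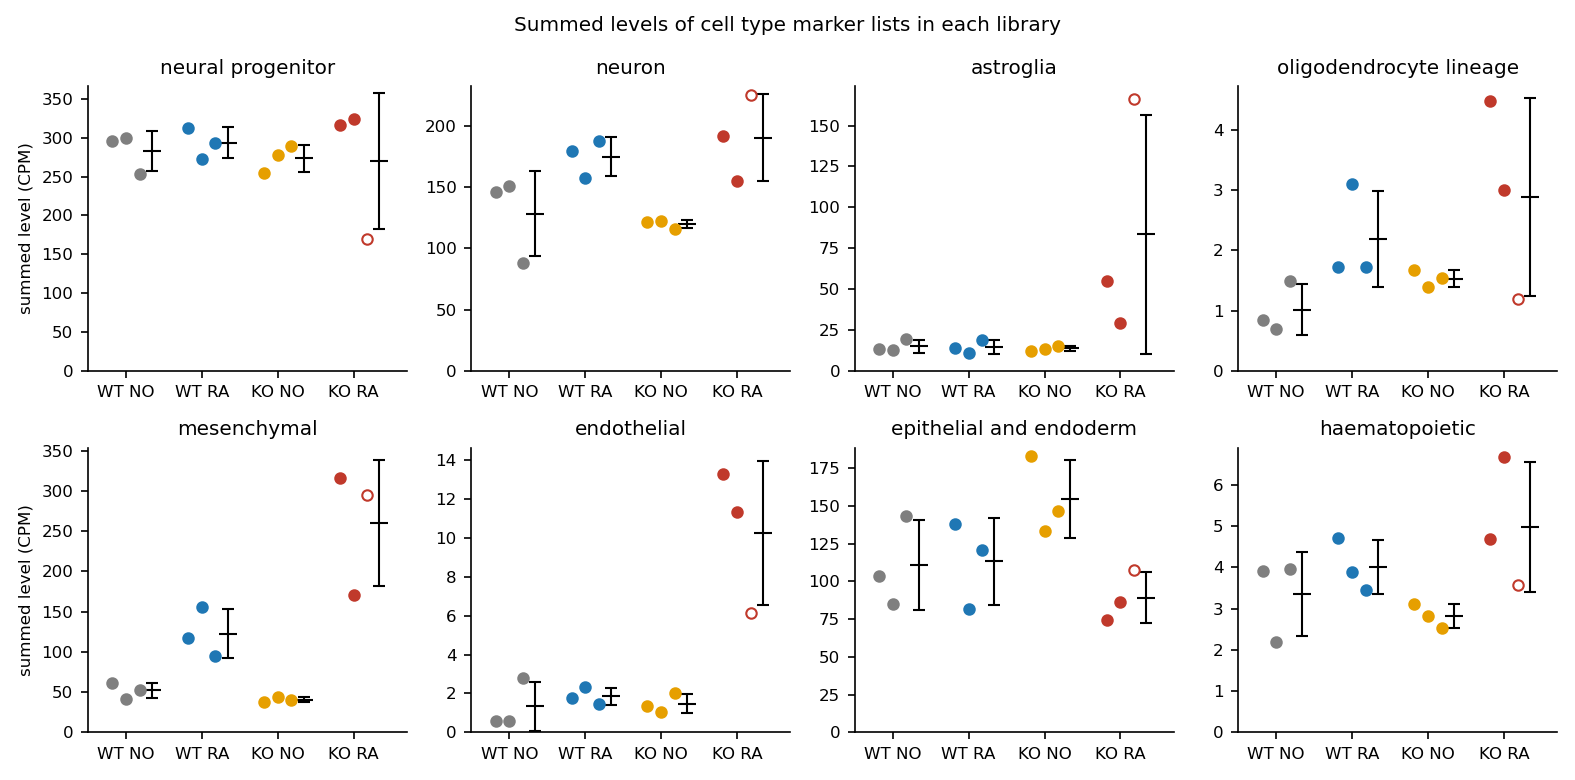
Summed level in CPM (vertical axis from 0) of 8 lists of cell type markers in the 3 libraries of each group, with the mean and SD (n = 3), and KO RA replicate 3 as an open circle. The mesenchymal sum is 170 to 316 CPM in KO RA and 37.3 to 43.5 CPM in KO NO, and the astroglial sum in KO RA reaches 166 CPM in replicate 3.

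As a description of the patterns, the log2 levels of *Ptn* and *Sdc3* had a Pearson correlation of 0.91 over 12 libraries (0.89 over the 11 without KO RA replicate 3), *Ptn* and *Mdk* 0.74 (0.79), and *Ptn* and *Ptprz1* -0.08 (-0.25). These points share groups, depth and scaling. Over all tested genes, those most like *Ptn* were *Mir99ahg* (0.98), *Gxylt2* (0.97) and *Prrx2* (0.97), and those most like *Sdc3* were *Rprm* (0.98), *Mapk10* (0.98) and *Shisa9* (0.97). *Mdk* was closest to *Tex26* (0.96), *Ppp3cc* (0.95) and *C030034I22Rik* (0.93), *Ptprz1* to *Sfrp5* (0.98), *Acot6* (0.98) and *Ccn2* (0.97), and *Sdc1* to *Tgfb3* (0.91), *Ptpn9* (0.90) and *Thap11* (0.88). Without KO RA replicate 3, of each 3 genes 1 was again among the closest 3 for *Ptn*, *Mdk* and *Sdc3*, 2 for *Ptprz1* and 3 for *Sdc1*.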

How the data were processed

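Bulk RNA-Seq of 12 NE-4C libraries was analysed. The authors prepared polyA libraries, sequenced paired ends and ran nf-core/rnaseq at default settings (STAR and Salmon) on GRCm39. What the authors deposited are estimated counts for each gene, scaled by their pipeline from TPM to the library total. For 3851 genes detected in a single library, values were smaller the longer the gene's exons (Spearman correlation across genes -0.68), so a count is length-corrected, is not a number of fragments, and gets no counting interval. Replicates were independent passages per the study.

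After rounding, counts went into edgeR 4.0.16 under R 4.3.3 (filterByExpr, TMM factors, robust quasi-likelihood test, 1 coefficient per group, all 12 libraries). The threshold was an adjusted p under 0.05 (Benjamini-Hochberg over all 16502 tested genes). SEs were derived from the fold change and F statistic. The script was tested on simulated data. Alternatives were DESeq2 1.42.0 (the tool of the study), DESeq2 size factors, no filter, limma-voom 3.58.1 weighted by sample quality, a replicate term, only the groups compared, and each library left out. Correlations used log2 of CPM with a prior count of 2. The floor was 3 counts. Gene positions came from GENCODE's GRCm39 annotation, and promoters from RefSeq. Figures were drawn with Python and matplotlib.

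The 6 genes and the lists were chosen with earlier results of these data known. Genes named are the 6, *Faf2*, pathway genes called in any comparison (up to 5 per list and comparison), the leading level of each list, marker genes that were called or that qualify a marker list, and the 3 genes most correlated with each of the 6 that was tested. No promoter window was obtained for *Mdk*, those of *Sdc1* and *Alk* are not printed, and protein sequences were not used here.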

Additional observations from a re-analysis of the deposited data

Results flagged for a closer look

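For *Ptn* every untreated KO library lay below every untreated WT library, and every KO RA library above every WT RA library, so the order of the genotypes was opposite in the 2 states. The *Ptn* difference after RA was not called (edgeR adjusted p = 0.0933, and 0.0592 without KO RA replicate 3). The share of all genes with such an order was not counted. The RA responses of the 2 genotypes differed by 3.84 ± 0.60 on the log2 scale (edgeR adjusted p = 0.0858), and 3.45 without KO RA replicate 3 (edgeR adjusted p = 0.0191). Among the pathway genes the same order was seen for *Vcan*, with a difference between RA responses of 3.15 ± 0.48 (edgeR adjusted p = 0.0825) and 2.90 without KO RA replicate 3 (edgeR adjusted p = 0.0212). In untreated cells *Vcan* was not called between genotypes (-1.35, edgeR adjusted p = 0.105), but was called lower in KO without KO RA replicate 3 (-1.34, 0.0266). Groups of 3 libraries were not searched for single outlying values.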

How the results depend on the processing

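Of the log2 fold changes of the 5 tested genes under the alternatives, 374 kept their direction and their side of the threshold, 29 gained the call, 40 lost it and 2 changed sign. Both sign changes were of *Sdc1* in WT RA against WT NO, at 0.072 without WT NO replicate 1 and 0.02 without WT RA replicate 2, around -0.04. The number of these genes called in KO NO against WT NO, 2, was 3 with DESeq2, 4 with limma-voom, 3 with only the groups compared and 0 to 3 with each library left out. In KO RA against WT RA, 1 call became 3 with DESeq2, 2 with DESeq2 size factors, 0 with no filter, 4 with limma-voom, 0 with only the groups compared, and 0 to 3 with each library left out. In WT RA against WT NO, 1 call became 2 with DESeq2, 3 with limma-voom and 0 to 3 with each library left out. In KO RA against KO NO, 2 calls became 3 with DESeq2, 3 with limma-voom and 2 to 3 with each library left out. For the interaction, 0 calls became 2 with DESeq2, 2 with limma-voom and 0 to 2 with each library left out, and a fit of only the groups compared is the fit of all groups. The upper ends came without KO RA replicate 3, where genes called in KO NO against WT NO also rose from 188 to 1521. Over all genes, DESeq2 called 850, 1238, 779, 2528 and 246 and limma-voom 3566, 2987, 3562, 4531 and 985 in the same order, against 188, 205, 67, 904 and 0, and only the groups compared gave 718, 16, 545 and 196 in the first 4. With no filter 43 genes were called in WT RA against WT NO and 583 in KO RA against KO NO. With each library left out the ranges were 40 to 1521, 19 to 1707, 0 to 1868, 194 to 2776 and 0 to 232. Pathway genes called, 0, 2, 1, 8 and 0, numbered 4, 7, 6, 12 and 2 with DESeq2 and 22, 23, 15, 24 and 9 with limma-voom. The cause was not tested.

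The replicate numbers did not pair the libraries: in 0 of 18 pairs of libraries with the same number in different groups did deviations from the group means correlate above 0.1 (range -0.17 to 0.07). With the replicate block, calls among these genes were 0 in KO NO against WT NO, 0 in KO RA against WT RA, 0 in WT RA against WT NO, 2 in KO RA against KO NO and 0 for the interaction. Over all genes they were 56, 59, 10, 467 and 0, against 188, 205, 67, 904 and 0 without it. Low scaled counts limit *Alk*, which had at most 10 per library, and *Ptn* in KO NO.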
